A study of Mus musculus with 3 samples.

Results

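The cells described here were megakaryocytes, the platelet-forming cells of the marrow, picked out of mouse bone marrow by their own transcripts. A cell was kept when it had 1000 or more unique molecular identifiers (UMIs, each standing for 1 captured mRNA molecule), 400 or more genes and no more than 10% of its UMIs from mitochondrial genes. It was chosen as a megakaryocyte by its own Pf4 and platelet gene UMIs, when it had at least 3 UMIs of Pf4 and at least 4 of 8 further platelet genes, Ppbp, Gp9, Itga2b, Treml1, Cavin2, Rab27b, Vwf and Gng11. The gate took 318 of 22376 kept cells in 3 libraries. Because the 9 gate genes chose the cells, their levels are given as a description. They stayed in the fit over all genes, where 1 of them, Vwf, passed, and nothing is read from that.

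Femur and tibia marrow of male mice aged 6 weeks was profiled in 2 libraries with the Ep300-Znf384-V5-HA genotype, a fusion of the histone acetyltransferase gene Ep300 to the zinc finger factor gene Znf384 with V5 and HA tags, and in 1 wild-type library. After red cell lysis, each library received 5000 sorted live cells of whole marrow and 5000 sorted live lineage-negative cells, so a share of cells below is a share of that mixture and not of marrow. The labels do not give the promoter that drives the fusion, the cells that carry it or whether each library came from a separate mouse, so p-values measure only the spread between these libraries, which may be technical. With 1 wild-type library, all of the spread came from the fusion pair, and the wild type was taken to vary like them.

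Megakaryocytes grow large by repeated rounds of DNA replication without cell division, called endomitosis. They then fill alpha granules with proteins such as platelet factor 4 and von Willebrand factor, build the GPIb-IX-V and integrin receptors by which platelets bind to injured vessel walls, and release platelets from long cytoplasmic extensions. GATA1, FLI1, RUNX1 and NFE2 are the main transcription factors of this programme.

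The libraries held 97192347 UMIs in 9057 barcodes (fusion replicate 1), 93262028 in 9354 (wild type) and 111836603 in 8122 (fusion replicate 2), and the kept cells had medians of 7621, 7606 and 10518 UMIs. The gated cells supplied 1910442, 1509645 and 3200943 UMIs in the same order. Between 13 and 17 barcodes were shared by any pair of libraries among kept cells, and none among gated cells. A doublet caller marked 3, 3 and 9 of the gated cells, which were kept.

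The 4 defining genes Pf4, Itga2b, Treml1 and Gp9 summed to 10341, 11563 and 11810 plain CPM (the usual per-library scaling of UMIs to a common total) in the gated cells of fusion 1, wild type and fusion 2, against 24.2 to 36.0 in all other kept cells. All 4 belong to the gate, which fixed this contrast, so it is a description and no check of the label. The B cell factors Ebf1 and Pax5 and the T cell receptor chains Cd3e, Cd3d and Cd3g were at 0 in the gated cells of all 3 libraries, as were the stromal genes Cdh5, Cxcl12, Lepr, Col1a1 and Col3a1. As whole lists, T and NK markers summed to 469.5, 251 and 391 plain CPM in gated cells, against 141 to 218 in other cells, nearly all of it from Nkg7, a granule protein of killer cells (469.5, 251 and 390.2). The 8 endothelial and stromal markers summed to 15.7, 35.1 and 14.996 plain CPM, against 1.94 to 2.31 in other cells. Of the 8 B cell markers 3, 3 and 5 were detected in gated cells. They summed to 32.5, 25.8 and 21.6 plain CPM, against 98.2 to 233 in other cells. Neutrophil markers, all 12 of them detected in every library, summed to 2679, 5914 and 8739 plain CPM, against 51396 to 70573 in other cells, and 7, 6 and 16 gated cells had over 1% of their UMIs from the marker list of another lineage. Erythroid markers summed to 295, 103 and 886 plain CPM.

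The genes joined in the fusion showed no called difference in these cells. Ep300 was at 41.2, 63.1 and 52.6 CPM, here and below with library sizes scaled by edgeR's TMM method unless called plain, in fusion 1, wild type and fusion 2, a log2 fold change of -0.41 (SE 0.22, edgeR adjusted p = 0.696). Zfp384, the mouse name of Znf384, was at 26.6, 16.3 and 19.99 CPM, a log2 fold change of 0.49 (SE 0.34, edgeR adjusted p = 0.775). The fusion libraries lay below wild type for Ep300 and above it for Zfp384. A 3' count does not separate fusion from normal transcripts, and where the fusion transcript ends is not given in the labels, so neither gene checks the genotype.

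Megakaryocytes took a larger share of the kept cells in both fusion libraries. They were 111 of 7538 cells in fusion 1, or 1.47% (95% Clopper-Pearson interval 1.21 to 1.77), 68 of 7625 in wild type, or 0.892% (0.693 to 1.13), and 139 of 7213 in fusion 2, or 1.93% (1.62 to 2.27). These intervals cover counting error within a library and not the spread between libraries, and both fusion shares lay above the wild type. The fusion mean was 1.70% ± 0.321 (SD, n = 2), 1.91 times the wild type, and the exact two-sided permutation test over the 3 labellings gave p = 0.333, the smallest it allows. With at least 10 UMIs of Pf4 and 6 of the 8 genes the shares were 0.836% (0.643 to 1.07), 0.590% (0.431 to 0.789) and 1.36% (1.10 to 1.65), and the exact permutation p was 0.667. With depth evened out, in cells thinned to 2000 UMIs with a gate of 1 Pf4 UMI and 2 of the 8 genes, the shares were 1.30%, 0.676% and 1.47%. A larger share in both fusion libraries was not particular to megakaryocytes. Cells outside the gate with at least 1 UMI each of Gata1 and Gata2, with depth not evened, were 1244 of 7538, 728 of 7625 and 1265 of 7213.

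Some cells lay at the edge of the gate, more by the count of genes than by Pf4. At the minimum of 3 Pf4 UMIs stood 3, 1 and 5 gated cells, and 17, 9 and 16 had exactly 4 of the 8 genes. Just outside, 4, 2 and 9 cells had 2 Pf4 UMIs with enough of the other genes, and 12, 5 and 19 cells had enough Pf4 but 3 of the 8 genes.

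Gated cells had more UMIs than kept cells as a whole in every library. Their median was 15480 UMIs in fusion 1, 17113.5 in wild type and 19987 in fusion 2. That is 2.03, 2.25 and 1.90 times the median of all kept cells of the same library. The gate counted raw UMIs, so deep cells passed it more easily, and its part in these medians was not tested. Cells outside the gate with at least 1 UMI each of Gata1 and Gata2 had higher medians, at 22343, 19902.5 and 23526 UMIs. For gated cells both fusion ratios lay below wild type, the mean fusion ratio being 0.874 of the wild-type ratio (exact permutation p = 0.333). The largest cell had 80511, 167144 and 85954 UMIs, and that of the wild type alone held 11.1% of all gated wild-type UMIs. It had 5986 Pf4 UMIs, all 8 of the other gate genes and 1.19% of its UMIs from the neutrophil list, and the doublet caller did not mark it. This cell bears on most of the expression results below, and it was looked at separately after its values had been seen.

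**Figure D1:**
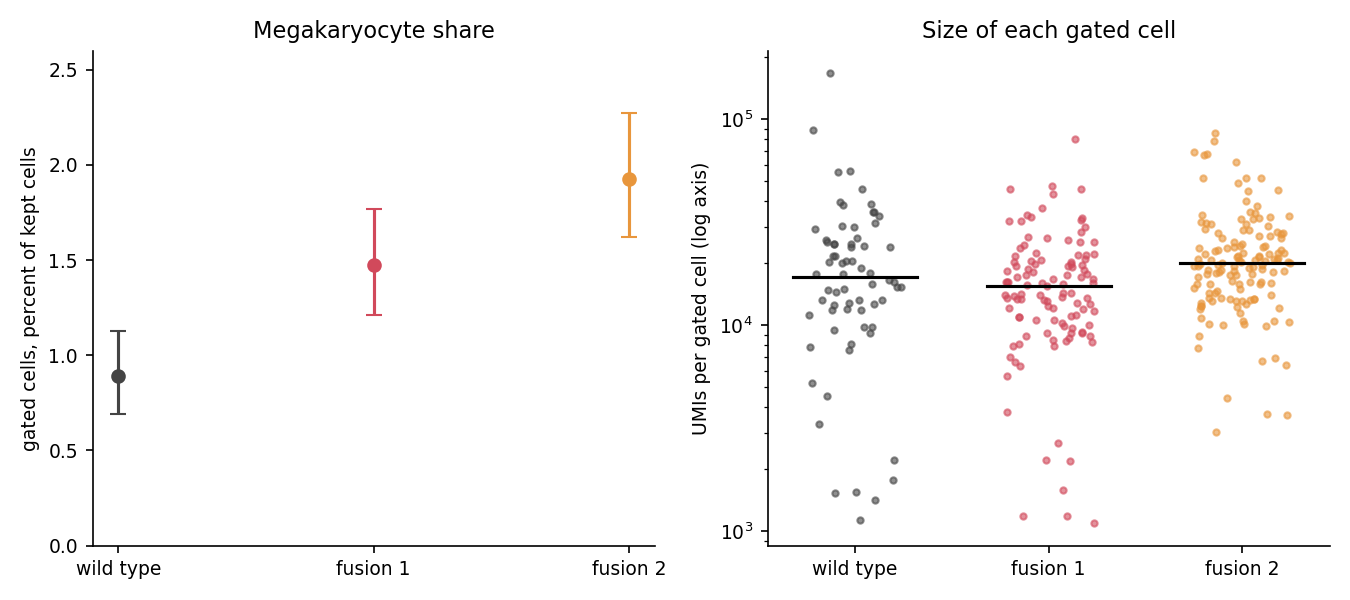
Left, gated megakaryocytes as a percent of kept cells in each library, with exact 95% intervals, where the wild type at 0.892% lies below both fusion libraries. Right, UMIs of every gated cell on a log axis with the median as a bar, where the largest wild-type cell stands alone at 167144 UMIs.

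Of the gate genes, Pf4, the chemokine platelet factor 4 of alpha granules, was at 9200, 10362 and 10866 plain CPM in fusion 1, wild type and fusion 2. Without the largest cell the wild-type level of Pf4 was 7193. Itga2b, the alphaIIb chain of the fibrinogen receptor, was at 652, 633 and 584 plain CPM, a narrow range over the 3 libraries. Treml1, a receptor of alpha granule membranes, was at 309, 332 and 228, and Gp9, a subunit of the von Willebrand factor receptor, at 179, 236 and 132. Wild type was highest for both, but not with depth evened out. In gated cells thinned to the same UMIs, Treml1 had a mean of 274, 153 and 206 CPM. Gp9 was then at 204, 90 and 101, and wild type was lowest for both. Without the largest wild-type cell the log2 fold changes of Treml1 and Gp9 were 0.35 and -0.03. Ppbp, the chemokine pro-platelet basic protein, varied most, at 496, 751 and 146 plain CPM, and was detected in 25.2%, 30.9% and 26.6% of gated cells. For Ppbp, 65.2% of the wild-type UMIs were in the largest cell. Vwf, von Willebrand factor, was at 135, 288 and 123 CPM, higher in wild type than in either fusion library. Cavin2, Rab27b and Gng11 were at 486, 629 and 487, at 266, 455 and 252, and at 169, 219 and 172 CPM, also highest in wild type. In the thinned cells Vwf (109, 163 and 104), Cavin2 (456, 483 and 441) and Rab27b (278, 300 and 204) stayed highest in wild type. Gng11, at 153, 123 and 124, did not.

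The level of platelet genes depended on the size of the cell. The gate counted raw UMIs, so a shallow cell passed it only when gate genes were a larger part of its RNA than a deep cell needed. How far this set the levels in small gated cells was not tested. In cells under the median UMI count of their library (12, 10 and 15 cells) Ppbp stood at 5867, 6540 and 2619 plain CPM, against 32.6, 11.9 and 42.6 in cells at 2 to 4 times that median (44, 27 and 48 cells). Tpm4, a tropomyosin of the platelet cytoskeleton and no gate gene, had the same profile, with 1226, 2609 and 781 plain CPM in the small cells and 45.0, 42.4 and 42.6 in those at 2 to 4 times. Top2a, the topoisomerase of dividing or endomitotic cells, was highest at 2 to 4 times the median in every library, at 596, 475 and 713 plain CPM. Small cells high in Ppbp and Tpm4 and larger cells high in Top2a were thus present in wild type and fusion alike. The largest cells differed. Cells over 4 times the median (12 in each library) held 26.1%, 44.1% and 22.6% of the gated UMIs. There Ppbp was at 88.3, 1393 and 143 plain CPM and Tpm4 at 58.2, 468 and 126, highest in wild type. That class includes the largest wild-type cell.

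**Figure D2:**
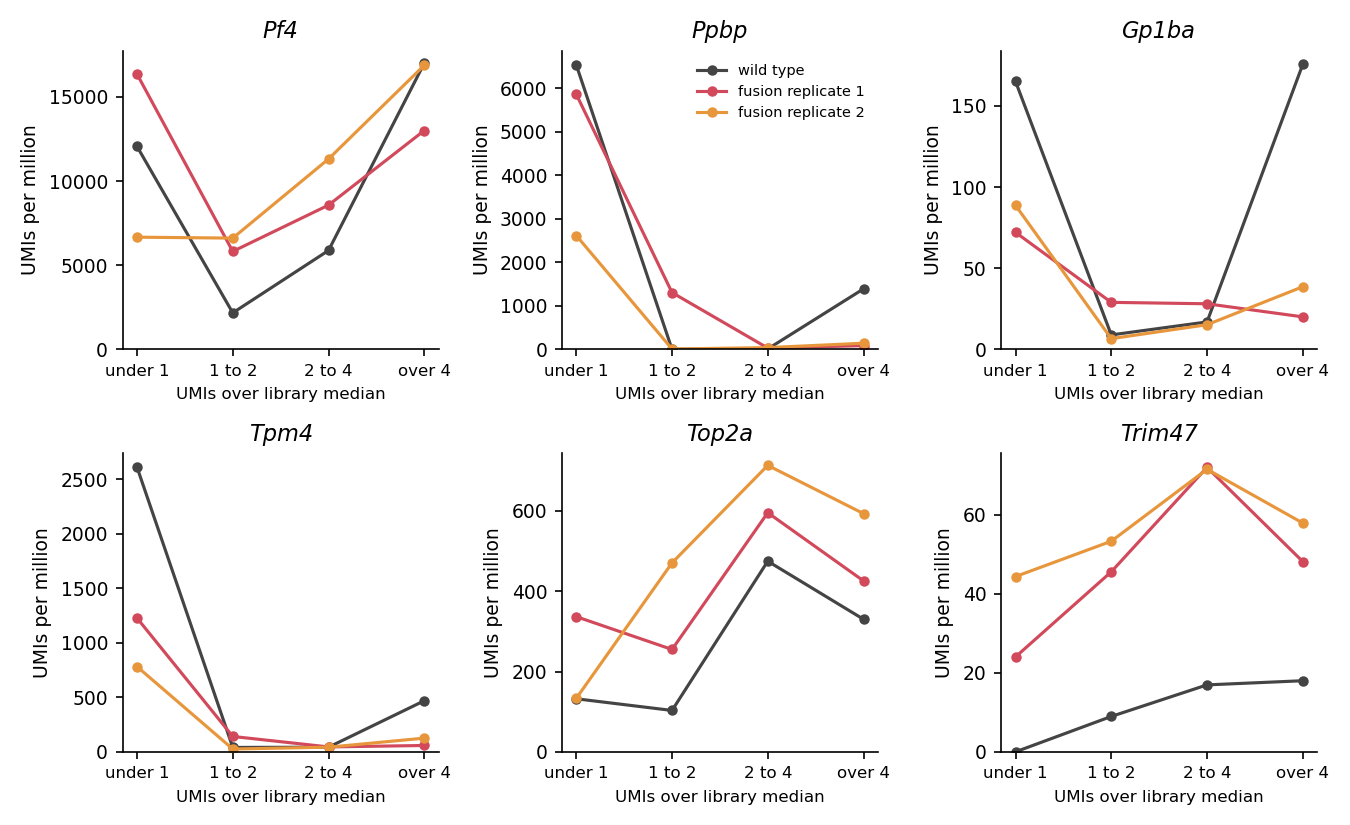
Plain CPM of 6 genes in gated cells, by the UMIs of the cell over its library's median (under 1, 1 to 2, 2 to 4, over 4), with 1 line per library. Ppbp and Tpm4 are highest in the smallest cells, Top2a at 2 to 4, and Trim47 is higher in both fusion libraries than in wild type, though the smallest class has 12, 10 and 15 cells.

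Promoters are shown for 2 of the defining marker genes, for Gp1ba, the gene of the von Willebrand binding subunit, which fell in the test below, and for Trim47, which rose. Each is the 250 bases before the RefSeq start in GRCm38.p6, on the strand of the gene, 5' to 3', with capitals on GATAA, the core of the GATA site, and AGGAAG, a core of ETS sites such as that of FLI1, on either strand (TTATC and CTTCCT in reverse). The entries are Pf4, chr5:90772185-90772434, plus strand, Itga2b, chr11:102469884-102470133, minus strand, Gp1ba, chr11:70638872-70639121, plus strand, and Trim47, chr11:116110236-116110485, minus strand.
Pf4: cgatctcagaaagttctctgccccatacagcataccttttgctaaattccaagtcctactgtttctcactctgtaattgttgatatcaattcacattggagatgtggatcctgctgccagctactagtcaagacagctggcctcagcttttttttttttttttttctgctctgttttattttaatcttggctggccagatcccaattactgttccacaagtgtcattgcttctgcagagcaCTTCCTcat
Itga2b: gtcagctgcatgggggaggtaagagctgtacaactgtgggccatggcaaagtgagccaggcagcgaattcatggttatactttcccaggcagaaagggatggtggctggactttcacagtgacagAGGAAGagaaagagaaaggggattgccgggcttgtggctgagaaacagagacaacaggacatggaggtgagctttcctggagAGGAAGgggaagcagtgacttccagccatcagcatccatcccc
Gp1ba: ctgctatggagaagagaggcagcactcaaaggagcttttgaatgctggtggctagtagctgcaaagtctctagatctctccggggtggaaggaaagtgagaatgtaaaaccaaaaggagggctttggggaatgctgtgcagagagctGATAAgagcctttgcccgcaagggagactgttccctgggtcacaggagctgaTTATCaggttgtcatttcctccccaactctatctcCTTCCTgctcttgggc
Trim47: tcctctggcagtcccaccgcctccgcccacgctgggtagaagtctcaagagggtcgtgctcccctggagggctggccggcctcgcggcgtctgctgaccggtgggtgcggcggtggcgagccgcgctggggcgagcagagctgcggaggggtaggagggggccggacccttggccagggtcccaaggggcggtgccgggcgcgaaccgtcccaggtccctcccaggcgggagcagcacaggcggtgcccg
GATAA was present in 22.6% and AGGAAG in 29.5% of 32851 mouse promoters of this length. Gp1ba held GATAA starting 103 bases upstream and, in reverse, 51 bases upstream, with the reverse of AGGAAG at 16. Pf4 held the reverse of AGGAAG at 9, and Itga2b held AGGAAG at 125 and 43. Neither motif occurred in these 250 bases of Trim47, and no 2 motifs overlapped. A match is a description of letters and not of a bound site.

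Genes of platelet adhesion, granules, signalling and cytoskeleton were among those that fell in fusion megakaryocytes when all gated UMIs were summed per library, and the largest wild-type cell held much of their wild-type UMIs. Of 9851 genes tested, edgeR's quasi-likelihood test called 32 at an adjusted p under 0.05 (0.325%), 4 higher (0.0406%) and 28 lower (0.284%), and 799 had an unadjusted p under 0.05, of which 498 were lower. The largest wild-type cell held between 15.9% and 81.0% of the wild-type UMIs of the 28 lower genes (median 50.5%), at least 50% for 16 of them and at least 25% for 26. Without that cell, 4 of 9776 genes were called (0.0409%), 3 higher (0.0307%) and 1 lower (0.0102%), none of the 28 among them. Of the 28, 27 remained below 0, and their median log2 fold change went from -1.61 to -0.79, but they were chosen as lower in these same data. Without all cells over 50000 UMIs (1, 4 and 9 cells), 1 of the 28 was called, and 9 of the 32 called genes changed sign. When instead the 29 cells with over 1% of another lineage's markers were left out, which include the largest wild-type cell, 9 of the 28 were still called: Tesc, Gp1ba, Selp, Parvb, F5, Vwf, Gcsam, Phlda1 and F10. Vwf, 1 of the 28 and of these 9, is a gate gene that helped to choose the cells. All 28 were called with the stricter gate, which keeps that cell.

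**Figure D3:**
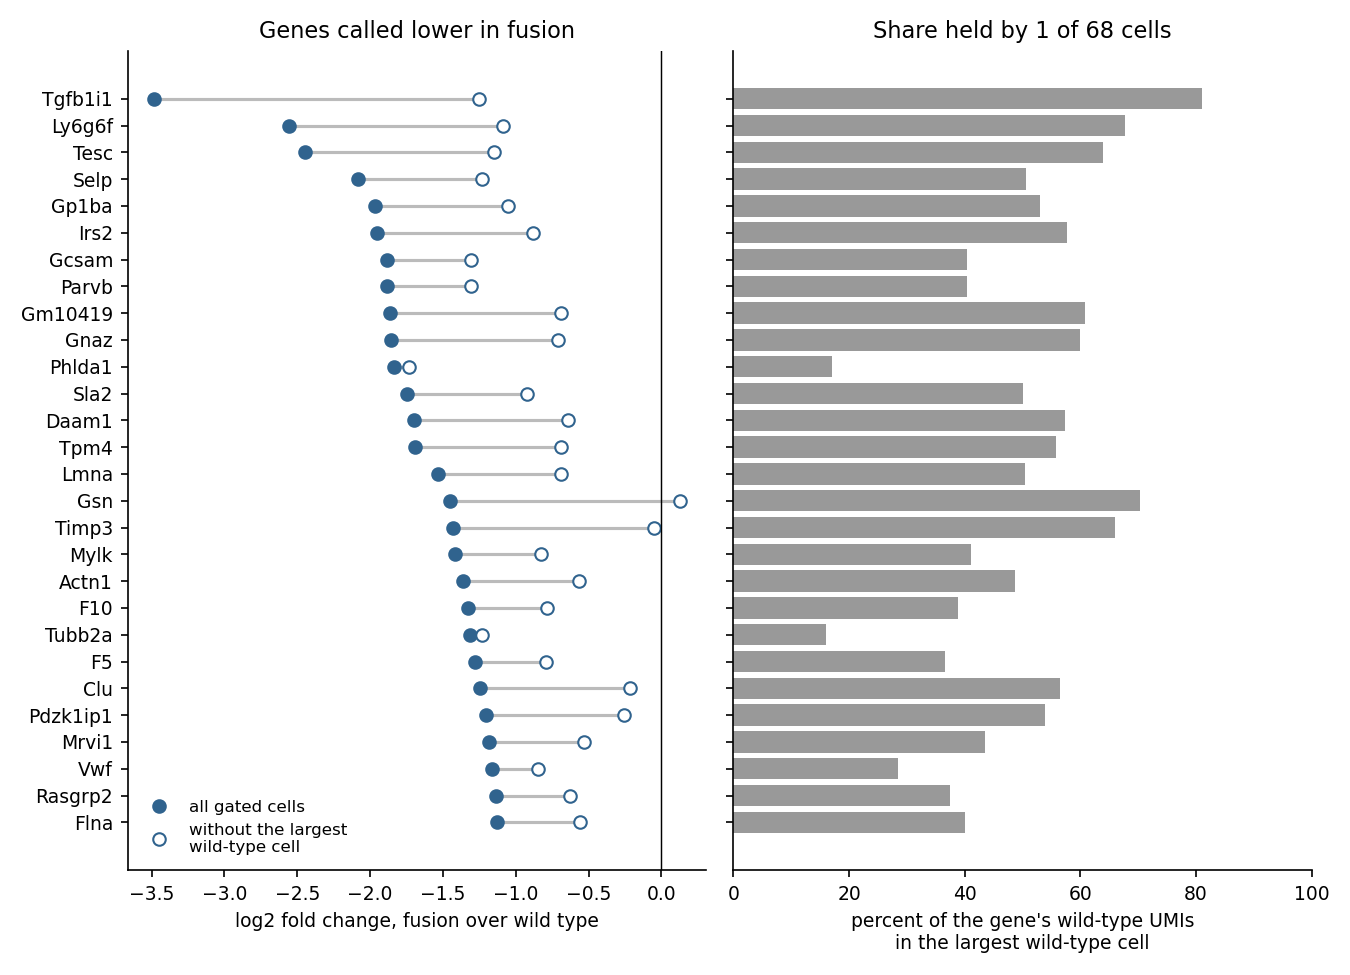
Left, log2 fold change of the 28 genes called lower in fusion megakaryocytes, with all gated cells (filled) and without the largest wild-type cell (open). Right, the percent of each gene's wild-type UMIs that this 1 of 68 cells holds, from 15.9 to 81.0.

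Among receptors, Gp1ba was at 26.1, 91.0 and 20.96 CPM in fusion 1, wild type and fusion 2, a log2 fold change of -1.97 (SE 0.21, edgeR adjusted p = 0.0075). Both fusion libraries were low and wild type was high, but the wild-type level was 46.9 plain CPM without the largest cell, and the fold change was then -1.05 (adjusted p = 0.245, range over 12 alternatives 3.02e-15 to 0.992). Without cells over 50000 UMIs the log2 fold change of Gp1ba was 0.055, no longer below 0. Selp, P-selectin, the adhesion receptor that alpha granules bring to the surface, was at 9.54, 55.0 and 15.5 CPM (log2 fold change -2.08, SE 0.29, edgeR adjusted p = 0.0272). Of the 19 tested members of the adhesion receptor list, 2 fell, Gp1ba and Selp, none rose and 17 did not pass. In this list 18 were below 0 and the median was -0.65. Of all genes tested, 0.284% fell, 0.0406% rose and 49.8% were below 0, with a median of 0.00. Gp6, the collagen receptor, was at 17.1, 61.1 and 3.87 CPM and did not pass (-2.70, SE 0.50, edgeR adjusted p = 0.0698). Without the largest wild-type cell the list had no called gene, 15 of 19 below 0 and a median of -0.29.

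Granule genes followed the same lines. F5, coagulation factor V, was at 32.1, 78.1 and 32.2 CPM, Clu, the chaperone clusterin, at 60.3, 130 and 49.98, and Timp3, an inhibitor of metalloproteinases, at 137, 323 and 103. These 3 fell, by 1.28, 1.24 and 1.43 on the log2 scale, among 28 granule genes tested, none of which rose (21 below 0, median -0.46). Of all genes tested, 0.284% fell and 49.8% were below 0. For Timp3, 65.9% of the wild-type UMIs were in the largest cell, and without it the log2 fold change was -0.05. That of Clu was -0.21 without the cell and turned to 0.68 in cells thinned to 5000 UMIs. Mmrn1, the factor V carrier multimerin, was at 82.9, 160 and 71.6 CPM and did not pass (edgeR adjusted p = 0.0652). The list's median without the cell was -0.23.

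In platelet signalling, Gnaz, a G protein alpha subunit, was at 37.7, 132 and 35.5 CPM, with wild type far above a close fusion pair (log2 fold change -1.86, SE 0.18, edgeR adjusted p = 0.00715). Rasgrp2, the activator of the integrin-switching GTPase Rap1, was at 129, 288 and 133 CPM and fell by 1.14 on the log2 scale. With Mrvi1, a target of the cGMP kinase at 62.3, 158 and 75.8 CPM, these were the 3 of 34 signalling genes that fell, none rose, 32 were below 0 and the median was -0.57. The shares over all genes tested were 0.284% called lower and 49.8% below 0. Without the largest wild-type cell no signalling gene was called, 26 of 33 tested were below 0 and the median was -0.29.

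Of the cytoskeletal genes, 6 of 35 fell and none rose: Tpm4, Actn1, Flna, Parvb, Gsn and Mylk, with 29 below 0 and a median of -0.47. Among all genes tested 0.284% fell and 49.8% were below 0. Tpm4 was at 94.4, 289 and 84.5 CPM (log2 fold change -1.69, SE 0.18, edgeR adjusted p = 0.0075). Parvb, a linker between integrins and actin, was at 30.6, 87.6 and 18.4 CPM, and Actn1, an actin cross-linker, at 39.2, 105 and 41.9. In each of these 3 genes both fusion libraries were below wild type. Gsn, the actin-severing gelsolin, was at 23.6, 68.6 and 26.1 CPM, but 70.3% of its wild-type UMIs were in the largest cell, without which its log2 fold change turned from -1.45 to 0.13. The list's median without that cell was -0.15, with 28 of 35 below 0 and none called.

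Other genes that fell were Tesc, a calcium-binding regulator, Daam1, a formin of actin assembly, Lmna, the nuclear lamin A, F10, coagulation factor X, and Sla2, an adaptor protein. Tesc was at 18.1, 99.8 and 18.4 CPM (log2 fold change -2.45, SE 0.20, edgeR adjusted p = 0.00241), and 63.9% of its wild-type UMIs were in the largest cell. Without it the log2 fold change of Tesc was -1.15 (adjusted p = 0.245, range over 12 alternatives 2.81e-23 to 0.882). Phlda1 and Tubb2a, named after their values were seen, held the smallest shares of their wild-type UMIs in that cell. Their log2 fold changes were -1.83 and -1.31 with it and -1.73 and -1.23 without it, where neither passed (edgeR adjusted p = 0.162 and 0.115, over 12 alternatives 2.63e-06 to 0.9999 and 6.42e-07 to 0.9999). In cells thinned to 5000 UMIs the log2 fold change of Tubb2a turned to 0.69 and that of Lmna to 0.36.

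The transcription factors of the lineage showed no such shift. None of 30 factors tested was called, 14 were above and 16 below 0, and the median was -0.03 with and without the largest wild-type cell. Gata1 was at 64.8, 78.1 and 65.5 CPM, Fli1 at 312, 350 and 326, Runx1 at 279, 263 and 278 and Nfe2 at 127, 138 and 114, these 4 being named as the defining factors after their values were seen. Gata1 lay below wild type with all cells (log2 fold change -0.26) and above it without the largest wild-type cell (0.11), and neither value passed. Of 23 cytokine signalling genes none was called and the median was -0.02.

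**Figure D4:**
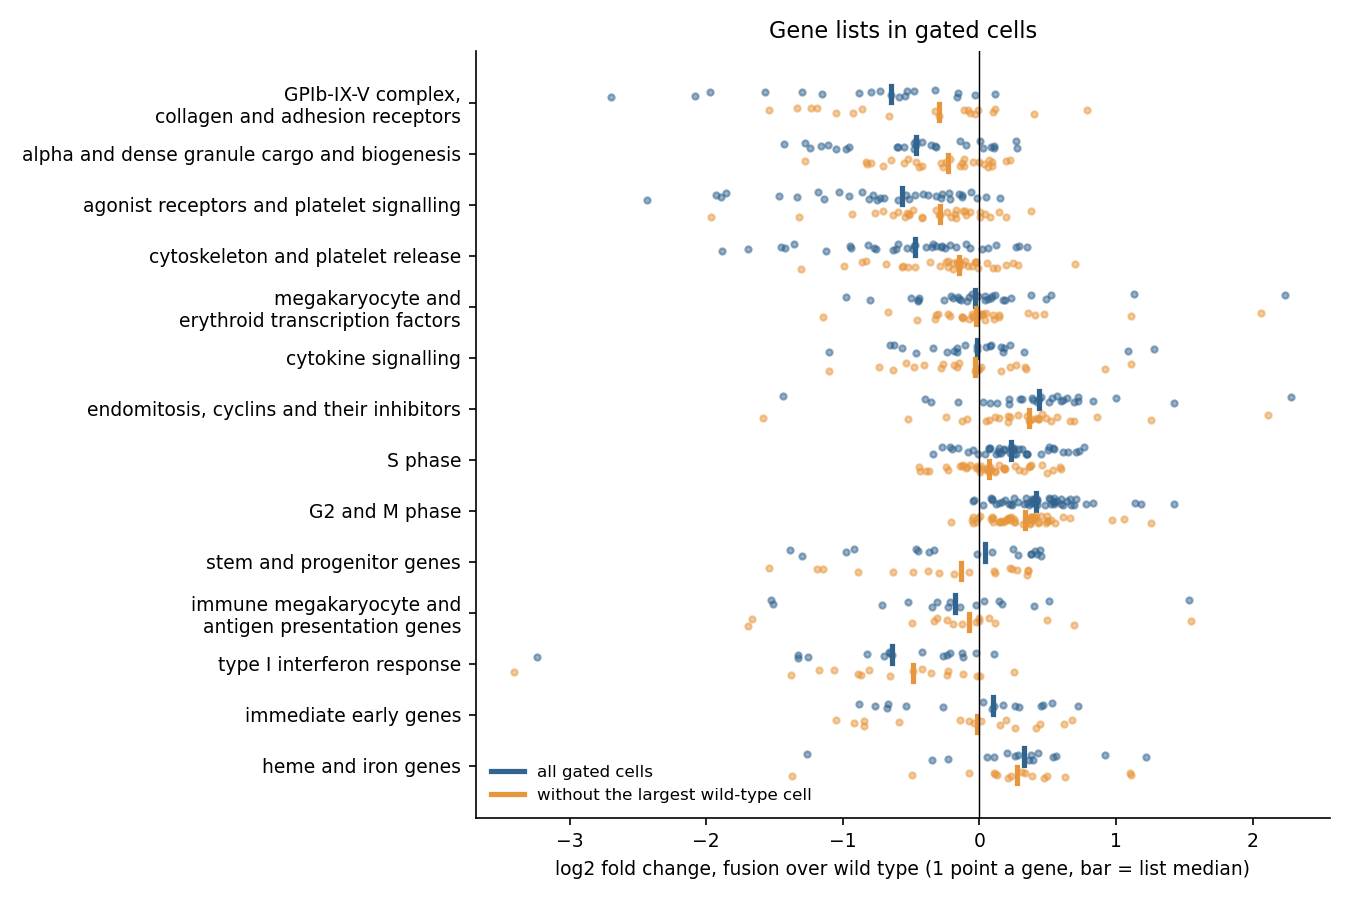
Log2 fold change, fusion over wild type, of every tested gene of 14 lists (1 point a gene, bar at the list median), with all gated cells in blue and without the largest wild-type cell in orange. The medians of the 4 platelet lists move toward 0 without that cell, from between -0.65 and -0.46 to between -0.29 and -0.15, and that of the G2 and M list goes from 0.42 to 0.33.

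Among the 4 genes that rose, Trim47 was called in the most alternatives. It is a member of the tripartite motif family of ubiquitin ligases and lies on chromosome 11 (116105752 to 116127210, minus strand, GRCm38). It was at 55.8, 16.3 and 63.5 CPM in fusion 1, wild type and fusion 2, a log2 fold change of 1.88 (SE 0.26, edgeR adjusted p = 0.0272). Both fusion libraries stood well above wild type, and without the largest wild-type cell the log2 fold change was 2.29 (adjusted p = 0.0111, range over 12 alternatives 5.99e-10 to 0.9999, called in 8). In cells thinned to 5000 UMIs (103, 60 and 135 cells, of median 16077, 19510 and 20259 UMIs before thinning), 14.6%, 8.33% and 28.1% had a Trim47 UMI, against 54.1%, 22.1% and 64.7% unthinned. In cells with at least 3 B cell markers (66, 180 and 94 cells, median 9160, 10187.5 and 10989.5 UMIs) the thinned shares were 1.52%, 0.556% and 1.06%, below all 3 megakaryocyte values, while the thinned intervals of fusion 1 (8.39 to 22.9) and wild type (2.76 to 18.4) overlapped. The same direction was seen outside the gate: Trim47 was at 8.73, 2.36 and 8.60 plain CPM in all other kept cells (log2 fold change 1.89, edgeR adjusted p = 1.13e-05), and the difference between the 2 effects was 0.06 (edgeR interaction adjusted p = 1).

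Khdrbs3, an RNA-binding splicing regulator, lies on chromosome 15 (68928420 to 69101211, plus strand), 12.5 Mb from Ep300. It was at 56.8, 19.7 and 53.8 CPM, high in both fusion libraries (log2 fold change 1.48, SE 0.24, edgeR adjusted p = 0.0422). Of its wild-type UMIs 3.45% were in the largest cell, and without that cell it did not pass (1.36, adjusted p = 0.128, range over 12 alternatives 1.67e-05 to 0.9999, called in 7). In thinned cells 32.04%, 10% and 25.9% had a Khdrbs3 UMI, against 1.52%, 3.89% and 5.32% of the B marker cells. In all other kept cells it was at 11.4, 5.16 and 11.2 plain CPM (log2 fold change 1.14, edgeR adjusted p = 0.000161), so the direction was shared with the rest of the marrow.

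Car1 and Chil3, the other 2 genes that rose, are abundant in other marrow cells. Car1, the carbonic anhydrase of early erythroid cells, was at 168, 17.7 and 110 CPM (log2 fold change 2.96, SE 0.34, edgeR adjusted p = 0.0107), and 54.0% of its UMIs in fusion 1 came from 1 cell, the largest, which had 99.4 plain CPM of Pf4 and 3627 of the erythroid list. Chil3, a chitinase-like protein of neutrophil precursors, was at 52.7, 15.6 and 82.5 CPM (log2 fold change 2.13, SE 0.35, edgeR adjusted p = 0.0422). In thinned cells 20.4%, 3.33% and 11.1% of megakaryocytes had a Car1 UMI, at or below the 21.2%, 15% and 23.4% of B marker cells, and for Chil3 the shares were 10.7%, 1.67% and 9.63% against 19.7%, 16.1% and 13.8%. Whether B marker cells express Car1 and Chil3 themselves was not tested, so their shares set no sure background. The comparison thus gives no reading of expression in megakaryocytes in either direction. Of the marker lists above, the erythroid sum was higher in both fusion libraries, as Car1 was, while the neutrophil sum was lower in fusion 1 and higher in fusion 2 than in wild type. Their part in the result was not tested.

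Plac8, a small cysteine-rich protein of progenitors and immune cells, was lower in the fusion libraries. It was at 94.9, 320 and 149 CPM and just missed the threshold with all cells (log2 fold change -1.39, SE 0.24, edgeR adjusted p = 0.0525). The largest wild-type cell held 0.847% of its wild-type UMIs, and without that cell Plac8 was the 1 gene called lower (-1.54, adjusted p = 0.042), with an adjusted p from 9.07e-09 to 0.9999 over 12 alternatives and a call in 8 of them. It was also lower in all other kept cells, at 874, 1800 and 830 plain CPM (log2 fold change -1.07, edgeR adjusted p = 0.00697). Free RNA of that more abundant source could add to the gated level, and its part was not tested. Of the 18 tested stem and progenitor genes, Plac8 included, none was called with all cells, 9 were below 0 and the median was 0.04.

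**Figure D5:**
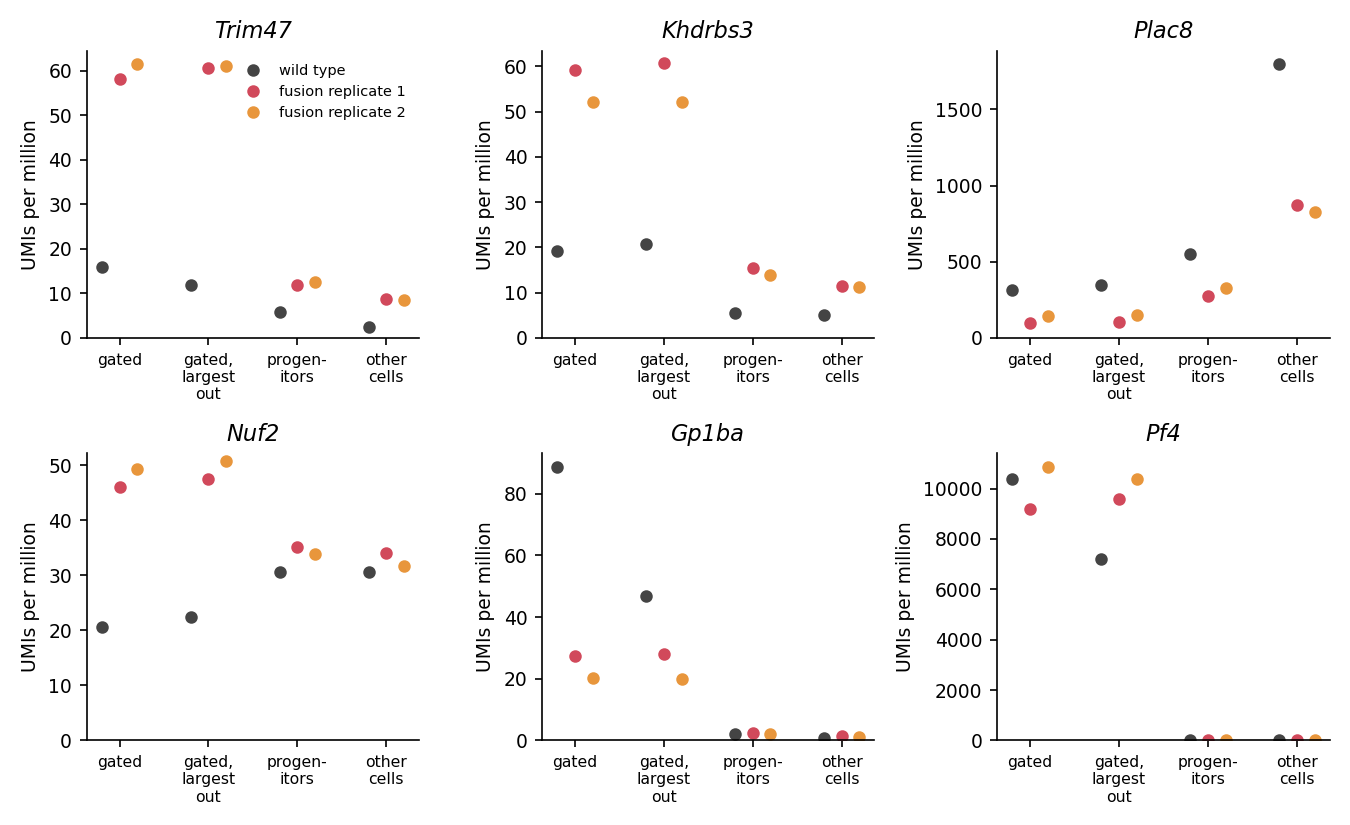
Plain CPM of 6 genes in gated megakaryocytes, in the same without the largest cell of each library, in Gata1 Gata2 progenitors and in all other kept cells, 1 point per library. Trim47 and Khdrbs3 are higher, and Plac8 lower, in both fusion libraries in each population, Gp1ba and Pf4 are near 0 outside the gate, and Nuf2 lies between 30.6 and 35.2 outside it.

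Genes of division and endomitosis lay above 0 as a body, with none called. Of the 52 tested G2 and M phase genes, 50 were above 0 and 18 of these had an unadjusted edgeR p under 0.05, and the median was 0.42. Of all 9851 genes tested, 301 were higher at an unadjusted p under 0.05, 49.8% were below 0 and the median was 0.00. Without the largest wild-type cell 46 of 52 were above 0 and the median was 0.33. Nuf2, a kinetochore protein, was at 44.2, 21.05 and 50.9 CPM, with both fusion libraries above wild type (log2 fold change 1.18, SE 0.25, edgeR adjusted p = 0.135). In thinned cells 22.3%, 5% and 16.3% had a Nuf2 UMI, against 22.7%, 25.6% and 27.7% of the B marker cells. The markers of those cells include genes of B cell precursors, whose Nuf2 may be their own. Their shares thus set no background for Nuf2, and nothing is read from the comparison. The mitotic kinases Cdk1, at 176, 105 and 196 CPM, and Plk1, at 53.2, 33.9 and 80.9, had the same order, and neither passed (edgeR adjusted p = 0.182 and 0.336). Cyclin B1, Ccnb1, was at 91.4, 65.2 and 123 CPM. In the list of cyclins and endomitosis genes 25 of 29 were above 0 with a median of 0.43, and in the S phase list 34 of 42 with a median of 0.23, which was 0.07 without the largest wild-type cell. Ccnd1, cyclin D1, went the other way, at 9.54, 40.7 and 19.0 CPM (-1.44, SE 0.35, edgeR adjusted p = 0.216).

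Summed over the list, G2 and M genes took 0.977% of gated UMIs in fusion 1, 0.790% in wild type and 1.09% in fusion 2, a ratio of 1.31 between the fusion mean and wild type (exact permutation p = 0.333, the smallest it allows). Without the largest cell of each library the ratio was 1.22 (exact permutation p = 0.667). In cells thinned to 5000 UMIs the shares were 0.876%, 0.746% and 0.969%. Cells with at least 1% of thinned UMIs from the list were 39 of 103 (37.9%, exact 95% interval 28.5 to 48.0), 18 of 60 (30.0%, 18.8 to 43.2) and 53 of 135 (39.3%, 31.0 to 48.0), and these intervals overlapped. UMI counts do not tell mitosis from endomitosis.

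Some genes were not called but had a mean of 20 CPM or more and both fusion libraries at least 1 from wild type on the log2 scale, a distance at least 3 times that between the fusion libraries. Of these, 8 were higher and 16 lower, and the higher ones are named here, as the places for lower genes were filled by called ones. Besides Nuf2 they were the phosphatase Cdc25c, the centromere protein Cenpn, Emid1, Gstt2, a glutathione transferase, Cd180, a receptor of the Toll-like family, and the heme pathway enzymes Alad and Blvrb. Alad, an early enzyme of heme synthesis, was at 95.9, 38.0 and 82.2 CPM (log2 fold change 1.22, SE 0.22, edgeR adjusted p = 0.0692). Blvrb, biliverdin reductase B, was at 129, 56.4 and 113 CPM, and 32.8% of its UMIs in fusion 1 were in that library's largest cell, the cell rich in erythroid genes. In thinned cells 33.98%, 15% and 28.9% of megakaryocytes had a Blvrb UMI, against 33.3%, 41.7% and 30.9% of B marker cells. The Alad share was below that of B marker cells in wild type only, and the Emid1 share in no library. Cd180 was at 55.3, 26.5 and 53.8 CPM in megakaryocytes and at 12.2, 15.2 and 15.2 plain CPM in other cells. Its thinned shares were 32.04%, 15% and 23.7% in megakaryocytes, against 25.8%, 13.3% and 25.5% in B marker cells. In B marker cells too, both fusion libraries were above wild type. The thinned shares of Cdc25c, Cenpn and Gstt2 lay below those of B marker cells in every library. Whether B marker cells express these genes themselves was not tested, so their shares set no sure background. As for Nuf2, nothing is read from the comparison. In the heme and iron list 13 of 16 genes were above 0 with a median of 0.32, none was called, and Alas1, the housekeeping form of the first heme enzyme, was at 19.6, 46.9 and 19.3 CPM (-1.27, edgeR adjusted p = 0.0754).

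Interferon, immune and immediate early genes held no call. Of 17 tested type I interferon response genes 16 were below 0 with a median of -0.64, which was -0.49 without the largest wild-type cell. Among 16 immune and antigen presentation genes 10 were below 0 (median -0.18), and the chemokine Ccl4 was at 12.6, 45.5 and 18.4 CPM (-1.51, SE 0.28, edgeR adjusted p = 0.0732). Ccl4 was low in both fusion libraries also outside the gate, at 94.4, 262 and 81.1 plain CPM. Immediate early genes were split, 10 of 16 above 0 with a median of 0.10, with Fos at 49.7, 76.0 and 40.6 CPM and Dusp1 at 99.0, 54.3 and 80.6.

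The genotype effect in megakaryocytes was compared with that in the cells most like them, 3237 cells outside the gate with at least 1 UMI each of Gata1 and Gata2. The interaction test called 274 of 12558 genes (2.18%), of which 160 had the higher effect in megakaryocytes, and 60 when the largest cell of each library was left out. In these progenitors alone 57 of 12987 genes were called between fusion and wild type (0.439%). The effect on Gp1ba differed from that in progenitors by -1.95 (edgeR interaction adjusted p = 6.51e-05) and, without the largest cells, by -1.02 (adjusted p = 0.626). That on Nuf2 differed by 1.04 (0.0234) and, without them, by 0.97 (0.205). Against all other kept cells 463 of 15221 genes were called (3.04%), and there the difference for Nuf2 was 1.15 (adjusted p = 0.00214) and, without the largest cells, 1.07 (0.00632).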

How the data were processed

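Bone marrow cells were counted with the 10x Genomics 3' version 3.1 assay, per the labels. The authors deposited gene by barcode matrices of UMI counts, 1 per library, with no normalization. Per the submitters' processing notes, bcl2fastq 2.20.0.422, Cell Ranger 5.0.1 and GRCm38 were used. Per the file headers, the matrices were written by version 5.0.0. The lowest UMI total of a barcode was 500, and what set that minimum is not stated in the labels or headers. Cells were gated as stated, their UMI counts summed per library over 32285 genes and tested with edgeR 4.0.16 in R 4.3.3 (TMM, filterByExpr, quasi-likelihood, Benjamini-Hochberg at 0.05, 1 residual degree of freedom), with the standard error taken as the log2 fold change over the root of F. Interaction fits had the library as a block. Alternatives included DESeq2 1.42.0, doublets called with scrublet in scanpy 1.11.5 (expected rate 0.06), thinning and left-out cells. Permutation tests over libraries and binomial intervals used scipy 1.17.1 and numpy 2.4.6, and the intervals cover counting error only. The scripts were tested on simulated data.

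Named genes were the gate genes, Ep300 and Zfp384, up to 15 called genes per direction by fold change with a mean of 20 CPM or more, uncalled genes in free places by size, up to 5 members of each of 14 lists, and a few chosen after their values were seen, which include the other called genes. A few results are not reported here. Cells, gene lists, rules and tests were chosen with earlier results of these data known. Gene coordinates are those of the reference annotation of GRCm38 used here, and promoter sequences are RefSeq's.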

Additional observations from a re-analysis of the deposited data

Results flagged for a closer look

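For 16 of the named genes the genotype effect in megakaryocytes differed from that in another population of the same libraries, by edgeR's interaction test at an adjusted p under 0.05. This gave 24 differences, of which 10 were still called when the largest cell of each library was left out. All are differences between log2 fold changes, megakaryocytes minus the other population.

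Against Gata1 Gata2 progenitors the effect was higher in megakaryocytes for Car1 by 3.01, Chil3 by 1.59, Nuf2 by 1.04 and Blvrb by 0.98. It was lower for the platelet receptor subunit Gp1ba by -1.95, Parvb by -1.75, Lmna by -1.47, Daam1 by -1.45 and Actn1 by -1.45. Of these 9, Car1 (2.42) and Chil3 (1.84) were still called without the largest cells. As stated above, the thinned shares of these genes give no reading of expression in megakaryocytes.

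Against all other kept cells the effect was higher for Chil3 by 2.01, Car1 by 2.004, Emid1 by 1.27, Cd180 by 1.21 and Nuf2 by 1.15. It was lower for Gp1ba by -2.59, Lmna by -2.10, Daam1 by -1.92, Parvb by -1.90, Selp by -1.47, Gnaz by -1.21, Timp3 by -1.11, Actn1 by -1.02, Gsn by -0.82 and Tpm4 by -0.51. Gp1ba was near 0 in those other cells, at 1.30, 0.799 and 1.24 plain CPM, and its difference includes the fold between these low levels. Of these 15, the differences still called without the largest cells were those of Car1 (1.37), Chil3 (2.25), Nuf2 (1.07), Cd180 (1.17), Gp1ba (-1.67), Parvb (-1.35), Daam1 (-0.91) and Lmna (-1.28). The limit on Car1 and Chil3 holds here too. For Cd180, the thinned shares of B marker cells had the same direction as those of megakaryocytes, as stated above. Gsn (0.76), Tpm4 (0.51) and Timp3 (0.25) then turned above 0 and did not pass.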

How the results depend on the processing

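The count of 32 called genes moved with most settings. It was 203 with no filter on low counts, 72 with the stricter gate, 63 without cells rich in another lineage's markers and 50 without predicted doublets. It was 21 with 68 cells per library, 10 without cells over 50000 UMIs, 4 without the largest wild-type cell, 4 in thinned cells and 2 with DESeq2. Without the largest cell of each library edgeR called 0, with 511 at an unadjusted p under 0.05. The settings that leave out or thin large cells were chosen after seeing the data. The interaction with progenitors gave 60 calls without the largest cells, 178 with no filter and 122 with the thinned gate. The share ratio was 2.31 without cells with Car1 and Klf1, chosen after seeing the data, and the UMI ratio 0.820 without doublets. Leaving out each fusion library gave share ratios of 1.65 to 2.16, UMI ratios of 0.845 to 0.903 and G2 and M ratios of 1.24 to 1.38. The G2 and M ratio was 1.22 (exact permutation p = 0.667) without the largest cell of each library. Log2 fold changes changed sign in thinned cells for Lmna (0.36), Pdzk1ip1 (0.71), Clu (0.68), Tubb2a (0.69), Ly6g6f (0.12), Zfp384 (-0.082) and Runx1 (-0.25). They did so without cells over 50000 UMIs for Gp1ba (0.055), Tgfb1i1 (0.15), Timp3 (0.70), Gsn (0.062), Pdzk1ip1 (0.037), Gcsam (0.12), Gm10419 (0.080), Irs2 (0.26), Ly6g6f (0.27), Gata1 (0.00035), Runx1 (-0.026) and Alas1 (0.13). Without the largest cell of each library Gsn was at 0.13 and Gata1 at 0.069, and without that of wild type alone at 0.13 and 0.11. Without cells rich in another lineage's markers Gata1 was at 0.044 and Alas1 at 0.043, and Fli1 was at 0.043 with the stricter gate. Without a fusion library, 1 library was left in each group and no test could be fitted. The cause was not tested beyond the share of UMIs in the largest cell. No paired analysis was possible because the replicate numbers follow the order of the samples, the labels give none, and there is 1 wild-type library.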
